A study of Homo sapiens with 12 samples.

Results

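Homologous recombination repairs broken DNA with an intact copy as template, and 7 genes of this pathway are described here across 4 treatment arms of a melanoma cell line: XRCC2, RAD51C, RAD54L, RAD51AP1, PALB2, EXO1 and TOP3A. They were taken by name from 14582 measured genes, all 7 were measured, and each had 1 probe set, so no choice between probe sets was needed. SK-MEL-2, an established human melanoma line, was treated for 24 hours, and RNA was measured on 12 Affymetrix arrays, 3 in each arm. Cells received the vehicle alone (DMSO), the pair of dabrafenib (100 nM) and trametinib (10 nM), called DT, entinostat (1 µM), called E, or these 3 agents combined, called DTE. Dabrafenib inhibits RAF kinases, trametinib inhibits the MEK kinases below them, and entinostat is an inhibitor of class I histone deacetylases. The labels name the replicates both biological and technical, and the tests therefore rest on a spread between arrays that may be technical. ERCC spike-in RNA was added before extraction in all arms.

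In homologous recombination, nucleases such as EXO1 resect the broken ends to single strands, where mediators including the scaffold PALB2 assemble. XRCC2 and RAD51C belong to accessory complexes that act on the single strand, RAD51AP1 and the motor protein RAD54L promote its invasion of the template, and the topoisomerase TOP3A separates the joined molecules afterwards. The pathway works mainly in S and G2 phase, when a sister chromatid is present, and several of its genes are known E2F targets transcribed as cells enter S phase.

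The arms differed in the overall level of their arrays. The median intensity of all genes was 33.4 to 41.3 on the DMSO arrays, 31.4 to 34.4 in DT, 39.4 to 51.6 in E and 22.9 to 25.1 in DTE. The median log2 difference over all genes was -0.12 in DT, 0.14 in E and -0.54 in DTE, each against DMSO, and in DTE it was -0.41 against DT and -0.82 against E. Over the genes above the median level, where all of the 7 but RAD51AP1 lie, it was -0.30, 0.10 and -1.01 against DMSO, -0.69 against DT and -1.10 against E. How the deposited values were scaled between arrays, and whether the spike-ins were used for it, is unknown here. Differences are therefore given with a quantile value, which is the log2 difference after the arrays were brought to 1 common distribution. Among defining melanocyte genes 7 of 8 were measured, and all 7 were above the background level in every arm, with a summed intensity of 2427 to 6092. Of 5 fibroblast genes 2 were measured, and neither was above it on all arrays of any arm, at a sum of 9.61 to 20.3. The leukocyte gene CD68 (92.7 to 222) and the endothelial gene VWF (12.2 to 20.8) were above it on all arrays of every arm. Of 3 keratinocyte genes measured, 1 was above it on all arrays in DMSO and DT and 2 in E and DTE. SPRY4, a gene that RAF-MEK-ERK signalling keeps on, fell in DT by 4.04 on the log2 scale (SE 0.17, quantile -3.71).

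The promoters are shown because all 7 genes fell in DT and the stretches differ in which motifs they hold. The RefSeq windows of GRCh38.p14 run from 250 bases before to 50 bases after a listed start of transcription, the most upstream one where several are listed, and all 7 genes had one. The first transcribed base is position 1. For EXO1 that start, chr1:241848204, lies inside the annotated gene, which begins at chr1:241847986. They were searched on both strands for E2F motifs (GCGGGAA, TTTCGCGC or TTTGGCGC), the cell cycle homology region TTTGAA, the CCAAT box and the cyclic AMP response element TGACGTCA, called CRE here. The motifs were chosen with the sequences in view, and no match shown overlaps one of another motif. Below, each stretch runs 5′ to 3′ from 140 bases before to 30 bases after the start, with E2F and CRE matches in capitals. The coordinates are chr7:152676112-152676281, minus strand for XRCC2, chr1:241848064-241848233, plus strand for EXO1, chr1:46247548-46247717, plus strand for RAD54L, chr12:4538750-4538919, plus strand for RAD51AP1 and chr17:58692433-58692602, plus strand for RAD51C. In the same annotation PALB2 lies at chr16:23603165-23641310 and TOP3A at chr17:18271428-18314994.
XRCC2: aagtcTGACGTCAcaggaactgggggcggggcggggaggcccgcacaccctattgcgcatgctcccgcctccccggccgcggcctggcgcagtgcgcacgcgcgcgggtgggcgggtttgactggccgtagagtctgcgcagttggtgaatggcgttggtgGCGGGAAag
EXO1: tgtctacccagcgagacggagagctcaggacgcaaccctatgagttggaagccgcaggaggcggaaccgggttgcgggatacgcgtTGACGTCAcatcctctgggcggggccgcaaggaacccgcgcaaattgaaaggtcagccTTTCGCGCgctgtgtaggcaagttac
RAD54L: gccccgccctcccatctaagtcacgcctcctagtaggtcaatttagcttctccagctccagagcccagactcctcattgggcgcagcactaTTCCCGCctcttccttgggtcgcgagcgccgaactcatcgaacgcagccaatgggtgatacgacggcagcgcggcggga
RAD51AP1: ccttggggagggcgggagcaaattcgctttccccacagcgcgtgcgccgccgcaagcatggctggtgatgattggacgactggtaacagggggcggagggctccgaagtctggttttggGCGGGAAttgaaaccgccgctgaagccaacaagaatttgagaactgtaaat
RAD51C: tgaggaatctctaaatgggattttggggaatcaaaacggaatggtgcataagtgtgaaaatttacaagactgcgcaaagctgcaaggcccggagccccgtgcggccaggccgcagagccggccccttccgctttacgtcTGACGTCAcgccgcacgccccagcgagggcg

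An E2F motif was found in 5 of the 7 windows, against 10.1% of the windows of 10562 genes tested here that had one. In XRCC2 it ended at position 28, in EXO1 at 12, in RAD54L at -43 and in RAD51AP1 at -15, counted from the start. In TOP3A it lay farther upstream, between -116 and -110, and the windows of RAD51C and PALB2 held none of these letters. The CRE was found in XRCC2, EXO1 and RAD51C, against 2.6% of windows, and in RAD51C it spanned the start itself. The CCAAT box was found in 3 of 7 windows (RAD54L, RAD51AP1 and PALB2; 36% of windows) and TTTGAA in 0 of 7 (11.9% of windows). These matches are descriptions of sequence and not of binding.

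**Figure D1:**
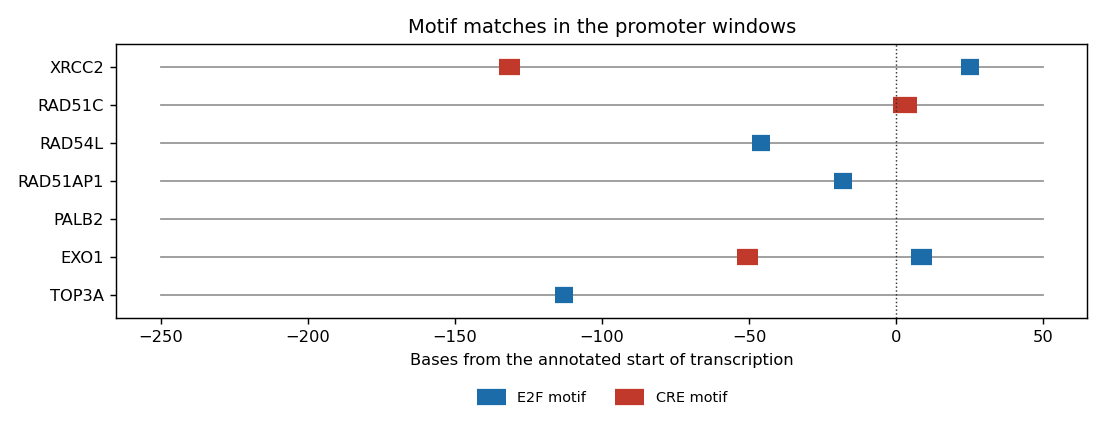
Positions of E2F (blue) and CRE (red) motif matches in the promoter window of each gene, on an axis of bases from the annotated start of transcription (dotted line). XRCC2, EXO1, RAD54L, RAD51AP1 and TOP3A have an E2F match, which lies at -116 to -110 in TOP3A, and RAD51C and PALB2 have none.

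All 7 genes fell in DT. In limma's test against DMSO 7 of 7 were lower at an adjusted p under 0.05, while 23.1% of all genes were lower by the same test. After quantile normalization the count was again 7 of 7, against 15% of all genes. The median of the 7 log2 differences was -1.77 (quantile -1.43), while over all genes it was -0.12. The genes were chosen with earlier results of these arrays known, so the count describes them and is not independent evidence of a direction.

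XRCC2, a subunit of an accessory complex of strand invasion, had intensities of 286, 258 and 211 on the DMSO arrays and 56.2, 53.8 and 64.6 on the DT arrays. It measured 241, 281 and 302 in E and 49.2, 58.9 and 70.1 in DTE. The arrays thus form a high pair of arms, DMSO and E, and a low pair, DT and DTE, with no overlap between them. How many of all genes show no overlap between arms was not counted, here and for the genes below. XRCC2 fell 4.3-fold in DT (log2 difference -2.11, SE 0.16, adjusted p = 6.9e-10; quantile -1.73). Among falls in DT over all 14582 genes it ranked at 17 in deposited values and at 19 after quantile normalization.

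RAD51C, also a subunit of such complexes, was the most intense of the 7 probe sets. It measured 356, 335 and 303 in DMSO and 165, 169 and 162 in DT. In E it measured 423, 464 and 497, and in DTE 129, 144 and 140. The 4 arms did not overlap, with E highest, then DMSO, DT and DTE. On the quantile scale they did not overlap either, but DTE lay above DT. The fall in DT was 2-fold (log2 difference -0.998, SE 0.13, adjusted p = 2.4e-06; quantile -0.65), which put RAD51C at rank 622 among falls.

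RAD54L, the motor protein of strand invasion, had 93.5, 86 and 69.8 in DMSO and 23.9, 24.3 and 16.9 in DT. It had 92.7, 109.6 and 107.7 in E and 25.4, 25.6 and 21.6 in DTE. The DT and DTE arrays overlapped each other and lay below all DMSO and E arrays. On the quantile scale DTE lay above DT without overlap. RAD54L fell 3.85-fold in DT (log2 difference -1.95, SE 0.16, adjusted p = 2.4e-09; quantile -1.63). Its lowest ratio to the background level of dim genes was 1.34 in DT.

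RAD51AP1, which stimulates the pairing of the strands, had 66.1, 70.6 and 57.2 in DMSO and 19.7, 16.6 and 18.9 in DT. It had 45.5, 46.3 and 61.3 in E, and in DTE it was at 14, 14 and 14.7. The DTE arrays lay below all others, although on the quantile scale they overlapped with DT. They were close to the background level, below which 95% of the dimmest 25% of genes lay on each array, which was 11.1 to 12.2 on those arrays. The lowest ratio to that level was 1.21 in DTE and 1.26 in DT, so its low arms lie near the level of dim genes. RAD51AP1 fell 3.51-fold in DT (log2 difference -1.81, SE 0.14, adjusted p = 1.9e-09; quantile -1.55).

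PALB2, the scaffold of the mediator step, had 168, 169 and 135 in DMSO and 72.9, 72.8 and 81 in DT. It had 132, 143 and 145 in E and 41.6, 40.9 and 36 in DTE. Here DTE stood apart below DT, while DMSO and E overlapped. On the quantile scale DTE overlapped with DT, and E lay below DMSO without overlap. PALB2 fell 2.08-fold in DT (log2 difference -1.05, SE 0.13, adjusted p = 2.0e-06; quantile -0.70).

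EXO1, an exonuclease of end resection and mismatch repair, had 106.4, 97 and 81.5 in DMSO and 31.7, 24.9 and 27 in DT. It had 112.1, 135 and 148.9 in E and 27.8, 30.2 and 25.3 in DTE. All E arrays were above all DMSO arrays, and the DT and DTE arrays overlapped, although DTE lay above DT on the quantile scale. EXO1 fell 3.41-fold in DT (log2 difference -1.77, SE 0.15, adjusted p = 4.2e-09; quantile -1.43).

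TOP3A, the topoisomerase of the dissolution complex, had 161, 157 and 129.9 in DMSO and 66.6, 60.4 and 73.8 in DT. It had 119, 132 and 141 in E and 31.2, 39.6 and 39.3 in DTE. As for PALB2, the DTE arrays were the lowest and DMSO overlapped with E. On the quantile scale E lay below DMSO without overlap. TOP3A fell 2.23-fold in DT (log2 difference -1.16, SE 0.14, adjusted p = 1.3e-06; quantile -0.80).

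**Figure D2:**
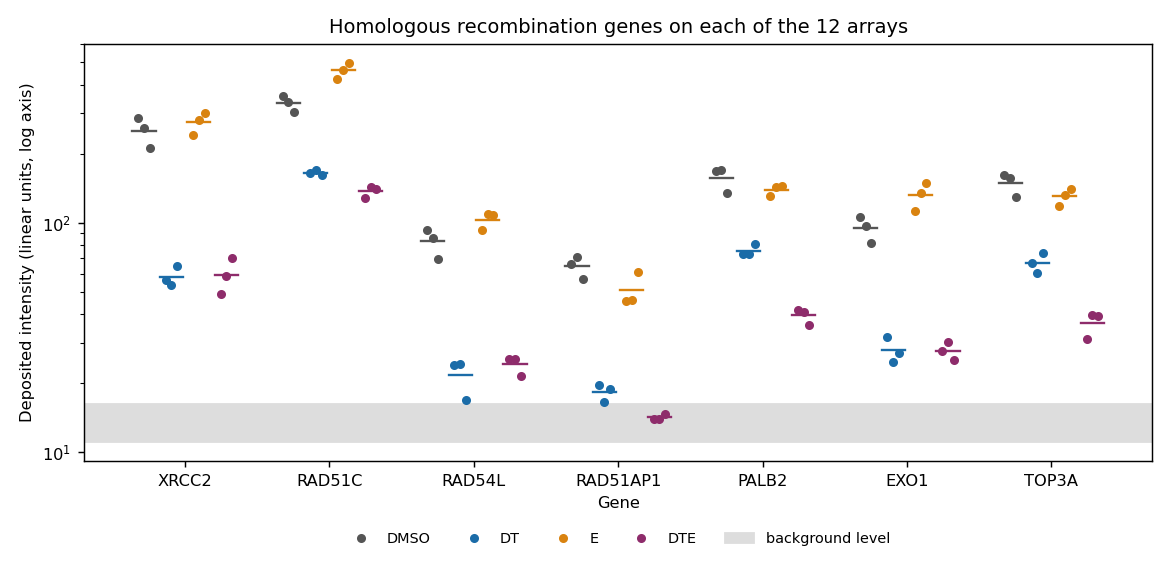
Deposited intensity of each gene on each of the 12 arrays, on a log axis, with the mean of each arm as a bar and the range of background levels over the arrays in grey. In each gene the 3 DT and 3 DTE arrays lie below the DMSO and E arrays, and RAD51AP1 in DTE, at 14 to 14.7, is near the background level. The share of all genes that separate in this way was not counted. By limma's test in these values 23.1% of all genes were lower in DT than in DMSO. In DTE 60.8% were lower than in DMSO and 78.5% lower than in E.

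The falls in DT were of unequal size. XRCC2, RAD54L, RAD51AP1 and EXO1 had log2 differences of -2.11 to -1.77, and TOP3A, PALB2 and RAD51C of -1.16 to -0.998. The upper 95% bound of EXO1 and the lower bound of TOP3A, the neighbours in this order, were both -1.46. After quantile normalization they were -1.21 and -0.99, so these intervals did not meet. Differences between genes were not tested. The 2 sets were divided by these same values, so the gap between their intervals is a description and not a test. E2F matches were found in all 4 genes of the first set and in TOP3A of the second, and CRE matches in XRCC2, EXO1 and RAD51C. A link between these motifs and the size of the fall was not tested.

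Adding DT to entinostat gave a comparison that shares no array with that of DT against DMSO. The genes were chosen with earlier results of these arrays known, so the counts and order here are not independent evidence either. In DTE against E 7 of 7 genes fell, against 78.5% of all genes in deposited values. In quantile-normalized values, where 10.8% of all genes were lower, 7 of 7 fell as well. EXO1 fell 4.74-fold (log2 difference -2.24, SE 0.15, adjusted p = 5.3e-11; quantile -1.25) and XRCC2 4.65-fold (-2.22, SE 0.16; quantile -1.10). RAD54L (-2.09, quantile -1.17), TOP3A (-1.84, quantile -0.76), RAD51AP1 (-1.83, quantile -1.12), PALB2 (-1.82, quantile -0.72) and RAD51C (-1.74, quantile -0.60) followed. On the quantile scale EXO1, RAD54L, RAD51AP1 and XRCC2 again had the larger values, with ranks of 36, 53, 67 and 75 among all falls. TOP3A, PALB2 and RAD51C ranked at 283, 321 and 470.

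In E 2 genes were called higher in deposited values. RAD51C rose 1.39-fold (log2 difference 0.48, SE 0.13, adjusted p = 0.0078; quantile 0.40, adjusted p = 0.0036). EXO1 rose 1.39-fold as well (0.47, SE 0.15, adjusted p = 0.021; quantile 0.33, adjusted p = 0.026). These were 2 of 7 genes, while 20.8% of all genes were higher and 4.81% lower in E. EXO1 was short of the threshold without array 3 of DMSO (adjusted p = 0.10), without array 2 of E (0.069) and without array 3 of E (0.099). Centring each array on its median instead gave 0.19 for both genes, short of the threshold (adjusted p = 0.097 for RAD51C and 0.15 for EXO1).

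RAD51AP1 measured -0.35 (SE 0.14, adjusted p = 0.079) and passed after quantile normalization (-0.54, adjusted p = 5.2e-04), and also without array 3 of DMSO (-0.44, adjusted p = 0.045) or array 3 of E (-0.49, adjusted p = 0.018). TOP3A measured -0.19 (SE 0.14, adjusted p = 0.36) and likewise passed after quantile normalization (-0.31, adjusted p = 0.015). PALB2 measured -0.17 (95% interval -0.45 to 0.11; quantile -0.29, adjusted p = 0.057), XRCC2 0.13 (-0.19 to 0.45; quantile 0.06) and RAD54L 0.32 (-0.004 to 0.65; quantile 0.16). None of these 3 was called on either scale, although PALB2 passed with median centring (-0.45, adjusted p = 0.0045), and PALB2 (-0.21, adjusted p = 0.043) and RAD54L (0.33, adjusted p = 0.011) with array weights. After quantile normalization 2 of 7 genes were higher and 2 of 7 lower, against 15.3% and 16.2% of all genes.

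PALB2 and TOP3A were lower still in DTE than in DT. PALB2 fell 1.92-fold from DT to DTE (log2 difference -0.94, SE 0.13, adjusted p = 4.6e-06; quantile -0.31, adjusted p = 0.039). TOP3A fell 1.83-fold (-0.87, SE 0.14, adjusted p = 2.3e-05; quantile -0.27, adjusted p = 0.032). RAD51AP1 fell 1.29-fold (-0.37, SE 0.14, adjusted p = 0.033), but not after quantile normalization (-0.10, adjusted p = 0.42) or median centring (0.080, adjusted p = 0.51). It was also short of the threshold without array 1 or 3 of DT (adjusted p = 0.12 and 0.085) and without array 1 or 2 of DTE (0.085 and 0.082). So 3 of 7 genes were lower in deposited values, against 54% of all genes. With trend and robust variance 2 of the 7 were called.

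XRCC2, RAD54L, EXO1 and RAD51C were not called between DTE and DT in deposited intensity, while the median was -0.41 over all genes and -0.69 over genes above the median level. XRCC2 differed between DTE and DT by 0.02 (95% interval -0.30 to 0.34), RAD54L by 0.17 (-0.15 to 0.50) and EXO1 by -0.001 (-0.31 to 0.31). RAD51C differed by -0.27 (-0.54 to 0.001, adjusted p = 0.081). Relative to the common distribution these 4 genes were higher in DTE than in DT, by 0.70 for XRCC2 (adjusted p = 1.3e-04), 0.62 for RAD54L (0.0045), 0.51 for EXO1 (0.0018) and 0.46 for RAD51C (0.0014). Of all genes 16.2% were higher and 18.2% lower on that scale, against 4 of 7 and 2 of 7 here. Which scale follows the amount of RNA per cell was not tested. RAD54L and EXO1 were dim in both arms, with lowest ratios to the background level of 1.34 and 1.89 in DT and 1.78 and 2.08 in DTE. A further fall of these genes could therefore be understated.

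Against DMSO, the combination left all 7 genes lower in deposited values, as were 60.8% of all genes. The log2 differences were -2.18 for RAD51AP1, -2.09 for XRCC2, -2.03 for TOP3A, -1.99 for PALB2, -1.77 for RAD54L and EXO1, and -1.27 for RAD51C. After quantile normalization 6 of 7 fell, against 23% of all genes, led by RAD51AP1 (-1.66, adjusted p = 2.3e-08). XRCC2, RAD54L, PALB2, TOP3A and EXO1 lay between -1.07 and -0.92 there. RAD51C measured -0.20 (adjusted p = 0.092), with quantile-normalized intensities of 233, 236 and 220 in DTE and 266, 247 and 278 in DMSO.

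**Figure D3:**
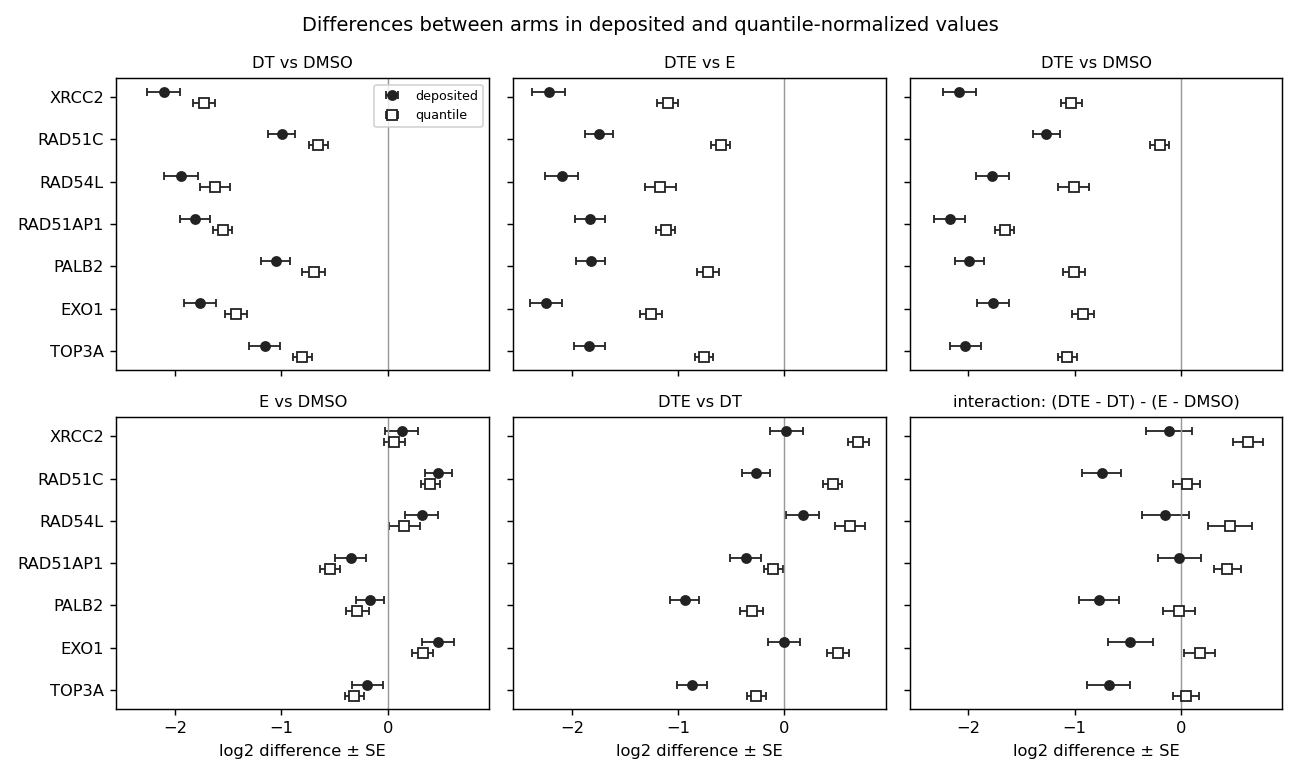
log2 differences of the 7 genes with their SE in 6 comparisons, from deposited values (filled circles) and quantile-normalized values (open squares). Both scales lie left of 0 in every gene for DT against DMSO and DTE against E, while for DTE against DT the squares of XRCC2, RAD51C, RAD54L and EXO1 lie right of 0.

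Whether the 2 treatments added up was read from the interaction, the difference between DTE and DT minus that between E and DMSO. In deposited values it was below 0 for PALB2 (-0.77, SE 0.19, adjusted p = 0.0021), RAD51C (-0.75, SE 0.18, adjusted p = 0.002) and TOP3A (-0.68, SE 0.20, adjusted p = 0.0072). These were 3 of 7 genes, against 62.5% of all genes, and the median over all genes was -0.63. EXO1 was just short of the threshold (-0.48, SE 0.21, adjusted p = 0.054, quantile 0.18). With array weights, and with dim genes left out, 4 of 7 were called, and with median centring 2 of 7. For RAD51C, additivity on the log2 scale would give an intensity of 230.5 in DTE, and the geometric mean there was 137. On the quantile scale the interactions of PALB2 (-0.02), RAD51C (0.05) and TOP3A (0.05) were close to 0, with 95% intervals from -0.35 to 0.33 at the widest. XRCC2 then had an interaction of 0.63 (adjusted p = 0.024), with an additive expectation of 62.1 and a geometric mean of 96.3. It was 1 of 7 genes, against 1.91% of all genes and 10 of the 17 S phase genes described below. RAD51AP1 (0.44, adjusted p = 0.078) and RAD54L (0.46, adjusted p = 0.24) did not pass, although RAD51AP1 did with median centring (0.71, adjusted p = 0.0065).

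Differences between 2 genes on the same array cancel any factor that acts on the whole array, although not one that depends on intensity. Of the 21 pairs, PALB2 and TOP3A kept the closest ratio, and the 4 arm means of their log2 difference spanned 0.10. The widest span was 1.38, for RAD54L and PALB2. The pairs below were picked after their values were seen and are given without a test. PALB2 minus TOP3A was 0.08 ± 0.03 in DMSO and 0.10 ± 0.05 in E, against 0.18 ± 0.08 in DT and 0.11 ± 0.28 in DTE (SD, n = 3 each). All DT arrays were above all DMSO arrays for this pair, and every other pair of arms overlapped, in quantile-normalized values too.

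EXO1 minus PALB2 was -0.73 ± 0.07 in DMSO and -0.09 ± 0.14 in E, against -1.45 ± 0.21 in DT and -0.51 ± 0.07 in DTE. The 4 arms did not overlap in deposited values, with DT lowest and E highest. After quantile normalization DTE (-0.62 ± 0.10) overlapped with DMSO (-0.70 ± 0.05), while DT stayed below and E above. XRCC2 minus TOP3A was 0.75 ± 0.07 in DMSO and 1.07 ± 0.05 in E, against -0.20 ± 0.04 in DT and 0.69 ± 0.13 in DTE. DTE overlapped with DMSO for this pair, while DT lay below and E above, on both scales. RAD51C minus TOP3A was 1.15 ± 0.06 in DMSO and 1.82 ± 0.01 in E, against 1.31 ± 0.18 in DT and 1.91 ± 0.12 in DTE. Both arms with entinostat were above both arms without it, without overlap, and this held for quantile-normalized values (1.86 ± 0.03 in E and 2.01 ± 0.16 in DTE).

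**Figure D4:**
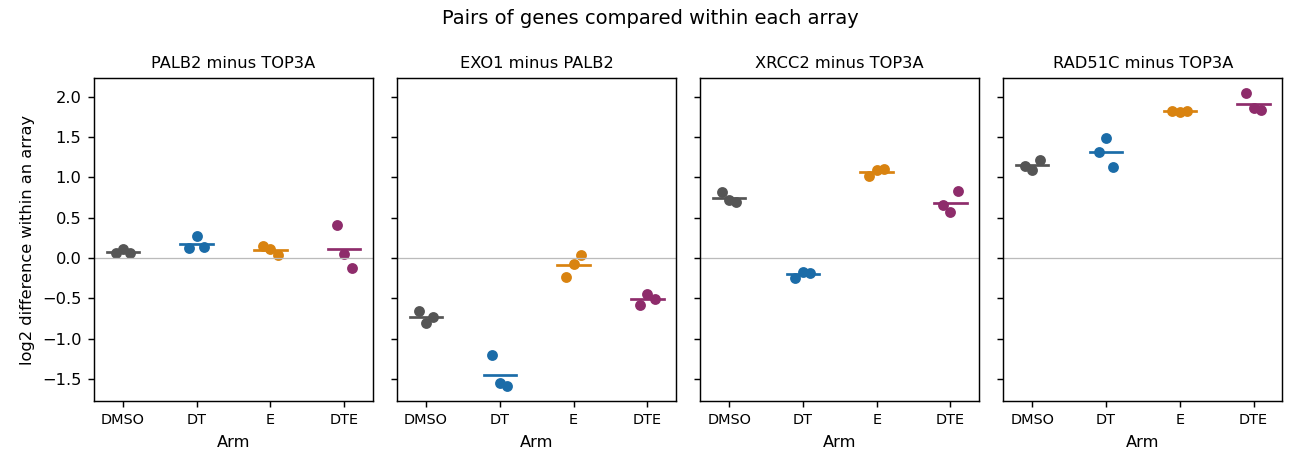
log2 difference of deposited intensity between 2 genes on the same array for 4 pairs, with 1 point per array and a bar for the mean of each arm. PALB2 minus TOP3A stays between -0.13 and 0.41, EXO1 minus PALB2 separates all 4 arms in these values (DTE and DMSO overlap after quantile normalization), and RAD51C minus TOP3A is at 1.81 or above in E and DTE and at 1.49 or below in DMSO and DT.

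Each gene's profile over the 12 arrays was compared with that of all other genes, by the root mean square difference of gene-centred log2 values. The genes nearest to XRCC2 were DTL (0.10) and MCM10 (0.12), both known for roles in replication, and they were nearest on the quantile scale too. EXO1 was the gene nearest to RAD54L (0.16), and DSCC1 (0.18) came next. For EXO1 they were CDK2 (0.13), the S phase kinase, and AMD1 (0.13). CENPM and IVNS1ABP (both 0.10) were nearest to RAD51AP1, SGO2 (0.10) and EZH2 (0.10) to RAD51C, TIMM21 (0.09) and SRSF7 (0.09) to PALB2, and TIMM10 (0.09) and RAD18 (0.10) to TOP3A. After quantile normalization only XRCC2 kept both neighbours, while CDK2 stayed nearest to EXO1 and TIMM21 to PALB2. CDK2 (0.16) was then nearest to RAD54L with EXO1 next, PLK4 and MAP3K5 to RAD51AP1, CSRP1 and NTAQ1 to RAD51C, and EFNA5 and MOCOS to TOP3A. In deposited values the median distance over all genes was 0.55 for RAD51C and 0.92 for XRCC2, the lowest and highest of the 7. XRCC2 stood at rank 3997 among the genes nearest to TOP3A, and PALB2 at rank 23 (8830 and 30 after quantile normalization).

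Of 40 other genes listed for homologous recombination, 21 were measured. Of these, 13 of 21 fell in DT, with a median of -0.62, against 23.1% of all genes. After quantile normalization 11 fell and 1 rose, with a median of -0.48, against 15% and 14.6% of all genes. The largest falls were those of MCM8 (-1.92, SE 0.16, quantile -1.54), a helicase subunit, BRIP1 (-1.82, SE 0.17, quantile -1.45), also a helicase, and DNA2 (-1.46, SE 0.15, quantile -1.24), a nuclease and helicase of resection. By role and with the 7 genes counted in, 4 of 5 measured resection genes fell (3 after quantile normalization), with 8 listed. Of the accessory complexes 4 of 5 fell (7 listed), and of strand exchange genes 3 of 4 (2 after quantile normalization, 5 listed). Mediators fell in 3 of 3 (6 listed), regulators in 3 of 5 (9 listed) and genes of dissolution and resolution in 3 of 6 (9 listed). No listed gene of single-strand binding was measured. RAD52 (-0.28, quantile 0.02), MUS81 (-0.38, quantile -0.08) and RAD50 (-0.22, quantile 0.12) were not called on either scale. They and SWSAP1 (0.19, quantile 0.46), called higher after quantile normalization (adjusted p = 0.013), were named after their values were seen.

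**Figure D5:**
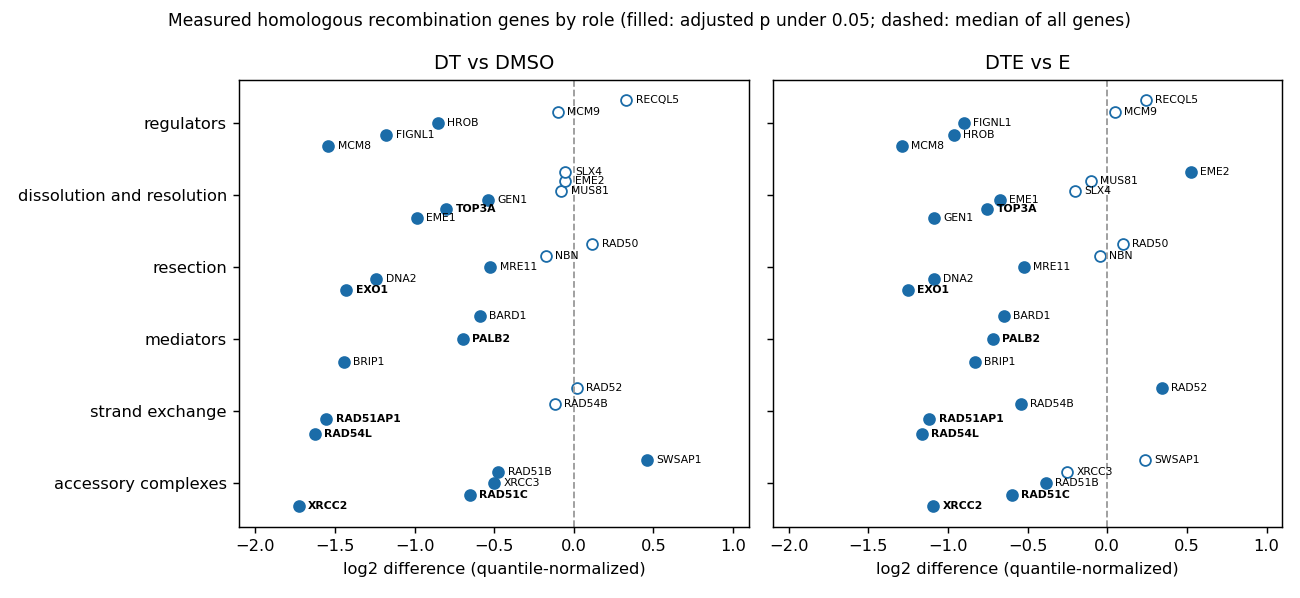
Quantile-normalized log2 differences of the 28 measured genes of homologous recombination by role, for DT against DMSO and DTE against E, which share no arrays. Filled points passed the adjusted p threshold of 0.05, the 7 genes described here are in bold and the dashed line is the median of all genes. Over both panels XRCC2, RAD54L, RAD51AP1 and EXO1 range from -1.73 to -1.10. MCM8, which is not 1 of the 7, is at -1.54 for DT against DMSO and at -1.29 for DTE against E.

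In E 0 of the 21 were called by limma in deposited values, against 20.8% of all genes higher and 4.81% lower. At an unadjusted p under 0.05, 4 were higher, against 4129 of all 14582 genes. After quantile normalization 6 fell and RAD50 rose (0.26, adjusted p = 0.028), against 16.2% and 15.3% of all genes. In DTE against DMSO all 21 fell in deposited values (60.8% of all genes) and 14 fell after quantile normalization (23%). RAD50 rose there (0.36, adjusted p = 0.0032), as did 20% of all genes. The falls were led by HROB (-2.30, quantile -1.35), which recruits the MCM8 helicase, MCM8 (-2.16, quantile -1.11) and the junction resolvase GEN1 (-1.94, quantile -0.94). From DT to DTE 15 fell (54% of all genes), led by RAD54B (-1.13, quantile -0.46), a RAD54L relative, HROB (-1.08, quantile -0.50) and SWSAP1 (-1.04, quantile -0.46). After quantile normalization these 3, MUS81 (-0.35) and MCM9 (-0.33) fell and 6 rose, led by BRIP1 (0.66, adjusted p = 5.6e-04). Of all genes, 18.2% fell and 16.2% rose on that scale. In DTE against E all 21 fell (78.5% of all genes), led by MCM8 (-2.40, quantile -1.29), GEN1 (-2.19, quantile -1.09) and HROB (-2.03, quantile -0.96). After quantile normalization 11 fell (10.8% of all genes) while EME2 (0.52) and RAD52 (0.34) rose (9.34% of all genes). The interaction was called below 0 for 12 of 21, a share under the 62.5% of all genes, led by GEN1 (-1.30, quantile -0.55), RAD54B (-1.21, quantile -0.42) and SWSAP1 (-1.03, quantile -0.22). After quantile normalization it was called for 0 of 21, against 2.19% of all genes lower and 1.91% higher. At an unadjusted p under 0.05, 2 were lower and 4 higher there, against 1385 and 1317 of all 14582 genes.

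Markers of S phase fell where the 7 genes fell. Their list was also chosen with earlier results of these data known, so its counts are not independent evidence. Of 17 replication and S phase genes, 17 fell in DT against DMSO, with a median of -1.64 (quantile -1.26, 17 of 17), against 23.1% of all genes (quantile 15%). In DTE against E 17 fell, with a median of -1.91 (quantile -0.78, 16 of 17), against 78.5% of all genes (quantile 10.8%). In E against DMSO CDC6 rose (0.56, quantile 0.54) and MCM5 fell (-0.58, quantile -0.67), against 20.8% and 4.81% of all genes. After quantile normalization 1 rose and 6 fell, against 15.3% and 16.2% of all genes. From DT to DTE 10 of 17 fell in deposited values, near the 54% of all genes, and 9 of 17 rose after quantile normalization, against 16.2%. The interaction was called below 0 for 1 of 17 in deposited values, against 62.5% of all genes. After quantile normalization it was called above 0 for 10 of 17, with a median of 0.54, against 1.91% of all genes. The part of cell cycle position in the changes of the recombination genes was not tested, and in bulk RNA fewer cells in S phase and less RNA per cell cannot be told apart.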

How the data were processed

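The authors deposited 1 intensity per probe set and array on a linear scale, for which the submitters' processing notes name RMA and Transcriptome Analysis Console without a version. How arrays were rescaled is not stated there. The platform annotation names 14750 (50.2%) of the 29398 probe sets for 1 gene, and these stand for 14582 genes, each taken by its probe set with the highest mean over the 12 arrays.

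log2 of the deposited intensities was fitted with limma 3.58.1 in R 4.3.3 (lmFit and eBayes, 1 mean per arm, all 12 arrays), with no pseudocount and no filter. P-values were adjusted over all 14582 genes by Benjamini-Hochberg, with a threshold of 0.05, and the fit was tested on simulated data. Alternatives were quantile normalization over all probe sets, median centring, array weights, trend and robust variance, a filter on dim genes, a replicate block and leaving out each array. The mean of a gene's probe sets and a fit of only the arms compared were also used. The number of arrays limits the precision.

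The 7 genes and the lists were chosen with earlier results of these data known. Named besides them were the 3 called genes of the recombination list with the largest rise or fall in each comparison, the 2 genes nearest to each of the 7, and SPRY4 and DUSP6 as treatment checks. DUSP6 fell in DT by 1.12 on the log2 scale (quantile -0.79). Of the other cell type lists, keratinocyte genes (3 of 4 measured) had a summed intensity of 36.9 to 66.6, the leukocyte gene CD68 92.7 to 222 and the endothelial gene VWF 12.2 to 20.8. Promoter sequences are those of RefSeq, GRCh38.p14.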

Additional observations from a re-analysis of the deposited data

Results flagged for a closer look

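By limma's test of the interaction, the effect of adding entinostat differed with and without DT for 3 of 7 genes in deposited values. After quantile normalization it did so for 1 of 7, in the opposite direction. Of all genes, 62.5% were called lower in deposited values and 1.91% higher after quantile normalization. In deposited values the interaction was -0.75 for RAD51C, -0.77 for PALB2 and -0.68 for TOP3A, while the median of all genes was -0.63. After quantile normalization it was 0.63 for XRCC2. No gene was called on both scales. Samples far from the others of their arm were not looked for by a test, since each arm had 3 arrays.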

How the results depend on the processing

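Over 833 alternative values of 42 member differences, 787 kept their call or lack of one (19 of these changed sign with a call in neither fit), 15 lost the call, 21 gained one and 10 turned. All 280 for DT against DMSO and DTE against E kept both. Many of these alternatives could not change the sign, because they leave a gene's difference as it was and alter only its SE or adjusted p. Among them are the replicate block, the trend and robust variance, the dim filter and leaving out an array of another arm. The mean of probe sets is another, since each of the 7 genes had 1 probe set. The tally is therefore a weak measure of stability. With quantile normalization the genes called were 6268 in DTE against DMSO, 5020 in DTE against DT, 2931 in DTE against E and 599 in the interaction, against 9490, 8466, 11489 and 9147 in deposited values. Of the 7 genes, 4 were then called in E, 6 in DTE against DT and 1 in the interaction. From DT to DTE it turned RAD51C (0.46) and EXO1 (0.51), and in the interaction XRCC2 (0.63), RAD51C (0.053) and TOP3A (0.048). Median centring called 3 of 7 in E, with neither RAD51C nor EXO1 among them, and 5 of 7 in DTE against DT. It called 5512 genes in E, 7256 in DTE against DT and 2540 in the interaction. It turned RAD51AP1 (0.080) and EXO1 (0.44) from DT to DTE, and XRCC2 (0.62), RAD51AP1 (0.71) and TOP3A (0.052) in the interaction. Array weights called 7226 genes and 6 of the 7 in E. The causes were not tested. Leaving out 1 array at a time gave 1 to 2 of the 7 in E (1 without array 2 of E), 2 to 3 in DTE against DT and 3 to 4 in the interaction.

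Arrays with the same replicate number did not deviate together, with correlations of -0.22 to 0.13 over 18 pairs. With the replicate number as a block, 3749 genes were called in DT, 3387 in E, 9283 in DTE against DMSO, 8197 in DTE against DT, 11393 in DTE against E and 8738 in the interaction. The counts of the 7 genes did not change.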
